A study of Homo sapiens with 72 samples.

Results

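NONHSAG026213.2 and NONHSAG026216.2 are 2 of the 96411 long non-coding RNA (lncRNA) genes whose levels were deposited for 3 human breast cell lines. Both were chosen by their measured response to TGF-β, and because their NONCODE identifiers lie close together, with 2 numbers between them that have no entry in the table. The question put to them was whether the pair responds together in each line. The identifiers are the only names available: the files give them no symbol, strand or coordinates, and 0 of the identifiers matched the gene tables used here, so closeness is of numbers and not a measured distance on a chromosome. Because the response to TGF-β chose the pair, every TGF-β comparison of the 2 genes is a description and carries no p-value. Apart from a permutation test of deviations within M1 groups, tests of the pair were run on comparisons among SB431542 libraries alone. These were given no TGF-β. The same libraries form the other side of the comparisons of TGF-β with SB431542. Low levels in them can therefore go with the choice, and these tests are not fully independent of it.

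The study followed MDA-MB-231, a triple-negative breast cancer line, MCF10A-M2 (M2), breast epithelial cells that HA-Ras has transformed, and MCF10A-M1 (M1), their normal counterpart. Cells of all 24 groups had been held overnight without serum. They were then given TGF-β at 5 ng/mL or the inhibitor SB431542 at 10 µM. DMSO and the buffer of the ligand were the vehicles. Libraries were made at 2, 8 and 24 h and at a start point, with 3 biological replicates in each group, which makes 72 libraries. At 0 h of the TGF-β arm no ligand had acted. Titles give 0 h and treatment labels 0.5 h for the first SB431542 samples, which are therefore called earliest. Each line is 1 established culture, so a difference between lines is a difference between these cultures.

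TGF-β is a secreted ligand that brings together type II and type I receptor kinases at the cell surface. The activated type I receptor phosphorylates SMAD proteins, which enter the nucleus and change transcription, and in mammary epithelial cells the pathway is known for arrest of growth and for epithelial to mesenchymal transition. SB431542 blocks the kinase of the type I receptor, and so also the signal from ligand that the cells make themselves. lncRNA genes give transcripts with no long protein-coding frame, and neighbouring lncRNA entries in a catalogue can be separate transcripts or pieces of 1 transcription unit.

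Values are TPM, a relative abundance per transcript length, scaled over the lncRNA genes of the table alone. Between 8458 and 16748 genes reached 0.5 TPM in a library, and the most abundant gene took 21.1% to 39.6% of a library's total, so a change in a few abundant genes shifts all others. TPM keeps no depth, and a listed 0 may be a failed estimate: of 516 genes with a median of at least 100 TPM, 13 were listed at 0 in some library. No column was identical to another. Both genes passed the filter in every line, which asked for 3 or more libraries with 0.5 TPM or more. Without libraries of the TGF-β arm, NONHSAG026213.2 would have failed it in M2 and MDA-MB-231, and NONHSAG026216.2 in M2. In such bulk samples, fewer cells that make a transcript and less of it per cell cannot be told apart.

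Both genes were detected wherever TGF-β had acted for 2 h or longer, but their time courses differed. NONHSAG026213.2 was above 0 in 27 of 27 TGF-β libraries of 2, 8 and 24 h and reached 0.5 TPM in all 27. In contrast, it was listed at 0 in 20 of 36 SB431542 libraries and did not exceed 1.26 TPM there. NONHSAG026216.2 was also above 0 in 27 of 27 of those TGF-β libraries and reached 0.5 TPM in 20 of them. It was listed at 0 in 13 of 36 SB431542 libraries and did not exceed 0.807 TPM in that arm.

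**Figure D1:**
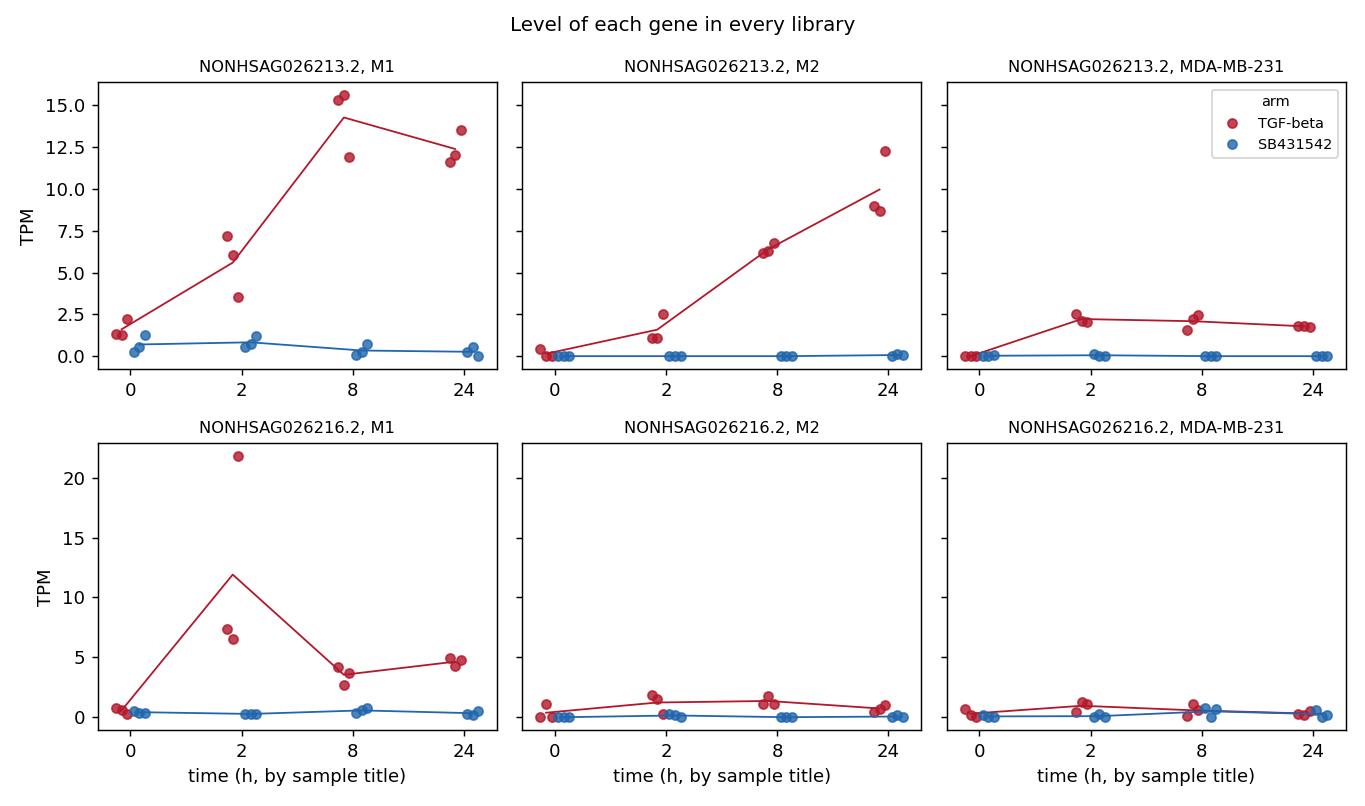
Level of each gene in TPM (vertical axis) in every library against time in hours (horizontal axis, not to scale), TGF-β in red and SB431542 in blue; points are single libraries and lines join group means of 3. NONHSAG026213.2 stands clear of the SB431542 libraries from 2 h in all 3 lines, with M1 group means of 14.3 TPM at 8 h and 12.4 TPM at 24 h. NONHSAG026216.2 does so from 2 h in M1, where its 2 h libraries hold 7.40, 6.55 and 21.8 TPM. At lower levels it also does so in M2 at 8 h and 24 h and in MDA-MB-231 at 2 h alone.

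In M1 both genes were higher at every time of TGF-β, the first with its maximum at 8 h and the second with its maximum at 2 h. NONHSAG026213.2 had 1.32, 1.26 and 2.22 TPM at 0 h, 7.20, 6.04 and 3.53 TPM at 2 h, 15.3, 15.6 and 11.9 TPM at 8 h, and 11.6, 12.0 and 13.5 TPM at 24 h. All 9 later libraries lay above all 3 of 0 h. NONHSAG026216.2 had 0.793, 0.571 and 0.308 TPM at 0 h, 7.40, 6.55 and 21.8 TPM at 2 h, 4.23, 2.69 and 3.70 TPM at 8 h, and 4.91, 4.26 and 4.74 TPM at 24 h. Again no later library overlapped the start, and replicate 3 of the 2 h group stood apart from the other 2, while the same library was the lowest of its group for NONHSAG026213.2.

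The log2 changes from 0 h in M1, on log2(TPM + 0.5) with the standard error of the limma fit, were 1.51 (SE 0.35), 2.83 and 2.64 for NONHSAG026213.2 at 2, 8 and 24 h. They ranked 89th, 5th and 13th from the top of 20899 genes. For NONHSAG026216.2 the changes were 3.37 (SE 0.33), 1.94 and 2.30, ranking 2nd, 69th and 22nd. The 2 h change of NONHSAG026216.2 was 2.85 without replicate 3 of that group. At 24 h the median change of all genes was −0.25, and after median-of-ratios scaling the changes were 3.00 for NONHSAG026213.2 and 2.63 for NONHSAG026216.2. For scale, every 2 h library lay above every 0 h library in 7.14% of all genes in M1, as did every 8 h library in 15.4% and every 24 h library in 6.06%. The pair was chosen on these contrasts, so nothing is read from its place among those genes.

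**Figure D2:**
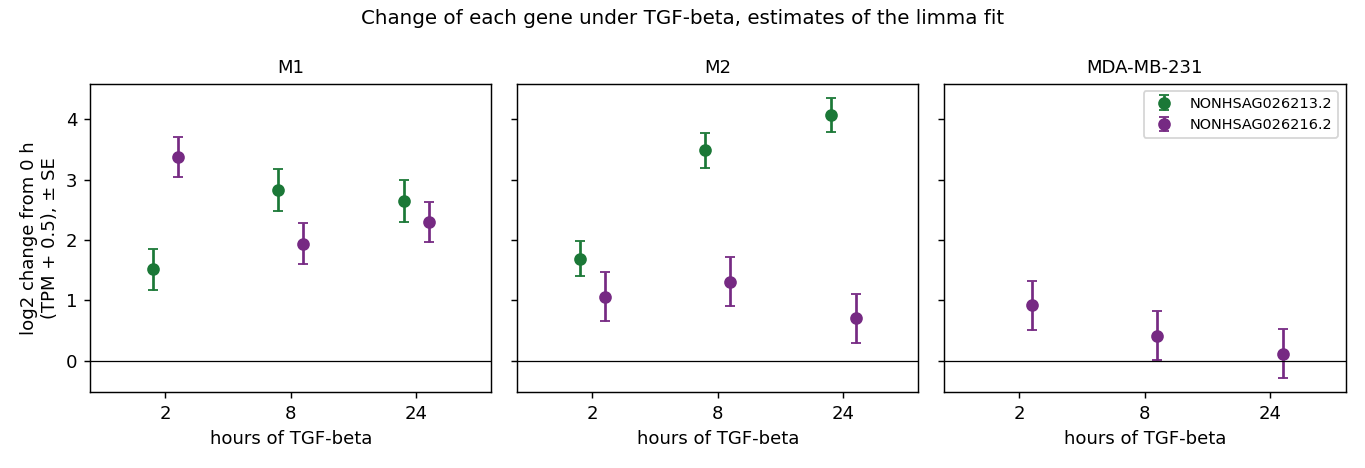
Log2 change from 0 h on the log2(TPM + 0.5) scale (vertical axis, bars are ± SE of the limma fit over 24 libraries of a line) at 2, 8 and 24 h of TGF-β. In M1 the larger change is that of NONHSAG026216.2 at 2 h (3.37 against 1.51) and that of NONHSAG026213.2 at 8 h (2.83 against 1.94); no point is drawn for NONHSAG026213.2 in MDA-MB-231, where every 0 h library was listed at 0.

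In M2, the Ras-transformed line, NONHSAG026213.2 kept climbing to 24 h while NONHSAG026216.2 stayed low. NONHSAG026213.2 had 0.430, 0 and 0 TPM at 0 h, 1.11, 1.11 and 2.54 TPM at 2 h, 6.14, 6.30 and 6.76 TPM at 8 h, and 8.96, 8.70 and 12.2 TPM at 24 h. Every later library lay above the start, and the 3 later groups did not overlap each other. The log2 changes were 1.69 (SE 0.29), 3.49 and 4.07, ranking 48th, 7th and 21st of 16958 genes. NONHSAG026216.2 had 0, 1.12 and 0 TPM at 0 h, 1.87, 1.56 and 0.250 TPM at 2 h, 1.14, 1.81 and 1.12 TPM at 8 h, and 0.430, 0.711 and 1.04 TPM at 24 h.

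The 0 h library at 1.12 TPM exceeded at least 1 library of each later M2 group for NONHSAG026216.2, so that gene's groups overlapped at all 3 times. Its log2 changes were 1.06 (SE 0.40), 1.31 and 0.70, ranking 259th, 342nd and 817th, and the 24 h change was 0.42 without 0 h replicate 1 or 3. In M2 every TGF-β library lay above every 0 h library in 6.25% of genes at 2 h, 8.07% at 8 h and 5.27% at 24 h. At 24 h the scaling weighs on these values: the median log2 change of all genes in M2 was −0.74 as deposited and −0.15 after median-of-ratios scaling. After that scaling the 24 h change was 4.87 for NONHSAG026213.2 and 1.20 for NONHSAG026216.2.

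In MDA-MB-231 the first gene was listed at 0 before TGF-β and at a similar level at all later times, while the second showed no separation. NONHSAG026213.2 was listed at 0 in all 3 libraries of 0 h, at 2.51, 2.13 and 2.03 TPM at 2 h, 1.58, 2.22 and 2.47 TPM at 8 h, and 1.80, 1.81 and 1.74 TPM at 24 h, so no fold is given. The 3 later groups overlapped each other. NONHSAG026216.2 had 0.695, 0.187 and 0 TPM at 0 h, 0.458, 1.27 and 1.14 TPM at 2 h, 0.0642, 1.06 and 0.601 TPM at 8 h, and 0.272, 0.186 and 0.490 TPM at 24 h. Groups overlapped at each time, and the log2 changes were 0.92 (SE 0.41), 0.41 and 0.12. The 24 h change turned to −0.03 without 24 h replicate 3 and to −0.17 without 0 h replicate 3, and it was 0.28 after median-of-ratios scaling, where the median of all genes was −0.03, against −0.25 as deposited. Every TGF-β library lay above every 0 h library in 4.28% of MDA-MB-231 genes at 2 h, 4.72% at 8 h and 3.95% at 24 h.

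Set against the inhibitor at the same time, the pair was again split by line. These differences share their TGF-β libraries with the changes given above and add no independent measurement of them. In M1 NONHSAG026213.2 exceeded its SB431542 level by 2.18, 4.20 and 4.15 on the log2 scale at 2, 8 and 24 h (SE 0.35), and NONHSAG026216.2 by 3.80, 1.93 and 2.64 (SE 0.33). No library overlapped in any of these 6 comparisons, a separation that 7.39%, 15.5% and 8.23% of all M1 genes showed at 2, 8 and 24 h. The SB431542 libraries held at most 1.22 TPM of the first gene and 0.774 TPM of the second at these times.

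In M2 NONHSAG026213.2 was listed at 0 in all 3 SB431542 libraries at 2 h and at 8 h, and at 0, 0.138 and 0.0649 TPM at 24 h, where its log2 difference was 4.20 (SE 0.29). The TGF-β libraries lay above all of these at each time. NONHSAG026216.2 overlapped at 2 h, where SB431542 libraries held 0.277, 0.155 and 0 TPM and the lowest TGF-β library 0.250 TPM, with a log2 difference of 1.28 (SE 0.40). At 8 h its SB431542 libraries were all listed at 0, below every TGF-β library. At 24 h the difference was 1.12, with no overlap. Such separation was seen in 13.6%, 21.6% and 10.3% of M2 genes at 2, 8 and 24 h.

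In MDA-MB-231 NONHSAG026213.2 was higher with TGF-β by 2.30 (SE 0.21) at 2 h, and its SB431542 libraries were all listed at 0 at 8 h and 24 h. NONHSAG026216.2 was higher by 1.28 (SE 0.41) at 2 h with no overlap, whereas its differences of 0.12 at 8 h and 0.18 at 24 h came with overlapping groups. The share of genes separated in this way was 3.94% at 2 h, 5.79% at 8 h and 2.48% at 24 h.

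The balance between both genes was taken inside each library as the log2(TPM + 0.5) of NONHSAG026216.2 minus that of NONHSAG026213.2, so a value above 0 means that NONHSAG026216.2 was listed higher. TPM is per length, so levels of both genes can be set side by side. In M1 the difference was −0.99 ± 0.67 at 0 h, 0.87 ± 1.38 at 2 h, −1.88 ± 0.40 at 8 h and −1.33 ± 0.14 at 24 h, given as mean ± SD of 3 libraries. Each 2 h library lay above each 0 h library, by 1.86 on average and by 1.06 without replicate 3 of the 2 h group, while the 8 h and 24 h libraries overlapped those of 0 h. NONHSAG026213.2 was thus the more abundant of the pair in M1 at 0, 8 and 24 h. At 2 h the 3 libraries held 0.04, 0.11 and 2.46, so both genes were near equal in replicates 1 and 2.

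In M2 the mean balance tilted further towards NONHSAG026213.2 with time, from 0 h values that rest on listed zeros. The difference was 0.27 ± 1.32 at 0 h, −0.37 ± 1.43 at 2 h, −1.91 ± 0.32 at 8 h and −3.11 ± 0.22 at 24 h. At 0 h the libraries held −0.89, 1.70 and 0, and each had at least 1 of both genes listed at 0. The 8 h and 24 h libraries lay below these, but with such a start the size of the tilt is not measured. The 2 h libraries, at 0.56, 0.35 and −2.02, overlapped those of 8 h, and those of 24 h lay below every library of 8 h. In MDA-MB-231 the difference was −0.95 ± 0.61, −1.37 ± 0.55 and −1.50 ± 0.29 at 2, 8 and 24 h, with overlapping groups, and it was not computed at 0 h, where NONHSAG026213.2 was listed at 0.

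**Figure D3:**
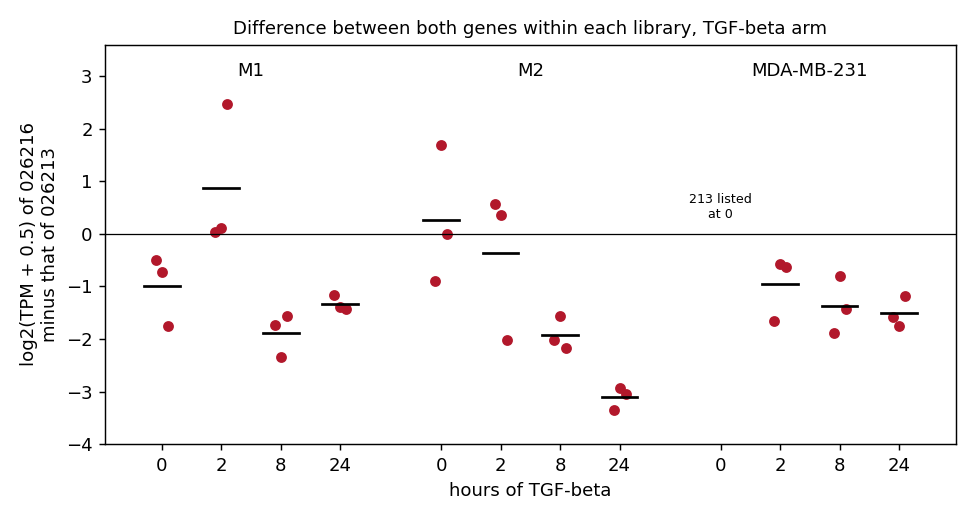
Difference between both genes within each TGF-β library, as log2(TPM + 0.5) of NONHSAG026216.2 minus that of NONHSAG026213.2 (vertical axis), by line and hour; points are libraries and bars are means of 3. M1 rises above 0 at 2 h alone, with libraries at 0.04, 0.11 and 2.46 (mean 0.87). M2 descends to a mean of −3.11 at 24 h, from 0 h values that rest on listed zeros.

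Within groups the deviations of both genes were set side by side in M1, where 7 groups had both genes above 0 in every library. Over their 21 libraries the deviations from the group means had a Pearson r of −0.37 and a Spearman rho of −0.38, with r = −0.53 without the 2 libraries farthest from the median. A permutation test of the deviations within groups gave p = 0.245 for r and p = 0.162 for rho, so no relation was called. The r without those 2 libraries was not tested. Most of the 21 libraries belong to the TGF-β arm by which the pair was chosen, and both genes share the library and its scaling, so the values are a description. M2 and MDA-MB-231 had 3 such groups each, under the 4 asked for, and gave no value.

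Ordered by level, the 24 groups also ran differently for each gene. NONHSAG026213.2 was highest in M1 at 8 h (14.3 ± 2.03 TPM), then in M1 at 24 h (12.4 ± 0.990 TPM) and in M2 at 24 h (9.97 ± 1.98 TPM, SD, n = 3), neighbours whose libraries overlapped. A gap with no overlap followed, down to M2 at 8 h (6.40 ± 0.320 TPM) and M1 at 2 h (5.59 ± 1.87 TPM). All other groups averaged 2.22 TPM or less. NONHSAG026216.2 was highest in M1 at 2 h (11.9 ± 8.55 TPM), followed without overlap by M1 at 24 h (4.63 TPM) and M1 at 8 h (3.54 TPM). Below them every group averaged 1.36 TPM or less and overlapped the next in order, the first of these being M2 at 8 h.

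No change of either gene from the earliest SB431542 samples passed the test. By their treatment label those samples had already been given the inhibitor, so a change from untreated cells was not tested. In M1 NONHSAG026213.2 averaged 1.60 TPM at 0 h of the TGF-β arm and 0.699 TPM in the earliest SB431542 samples. For NONHSAG026216.2 these means were 0.557 and 0.420 TPM. In M1 NONHSAG026213.2 had 0.270, 0.572 and 1.26 TPM in the earliest samples, 0.532, 0.737 and 1.22 TPM at 2 h of SB431542, 0.0656, 0.249 and 0.699 TPM at 8 h, and 0.239, 0.536 and 0 TPM at 24 h. The groups overlapped, and the log2 changes of 0.20, −0.50 and −0.64 (SE 0.35) did not pass the test (limma, Benjamini-Hochberg adjusted p = 0.933, 0.513 and 0.362). NONHSAG026216.2 stayed between 0.208 and 0.774 TPM in all 12 SB431542 libraries of M1. Its 2 h libraries, at 0.266, 0.258 and 0.291 TPM, all lay below the earliest, at 0.555, 0.335 and 0.371 TPM, as was seen for 4.83% of M1 genes, while the 8 h and 24 h libraries overlapped the earliest. None of its changes passed, at −0.25, 0.20 and −0.15 (SE 0.33, limma adjusted p = 0.903, 0.828 and 0.879). Of all genes tested in M1, 0.0813%, 3.68% and 5.25% were called at 2, 8 and 24 h.

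In M2 both genes were listed at 0 in every earliest SB431542 library, so no fold or test is given, and no later SB431542 library exceeded 0.138 TPM of the first gene or 0.277 TPM of the second. In MDA-MB-231 NONHSAG026213.2 held 0.155, 0.0074 and 0 TPM at 2 h against 0, 0 and 0.0754 TPM in the earliest samples (limma adjusted p = 0.997) and was listed at 0 in all libraries of 8 h and 24 h. Without TGF-β libraries it would have failed the filter there, so that p-value is a description. NONHSAG026216.2 had 0.156, 0.043 and 0 TPM in the earliest samples, 0, 0.269 and 0 TPM at 2 h, 0.807, 0 and 0.668 TPM at 8 h, and 0.580, 0.0106 and 0.157 TPM at 24 h, and these groups overlapped. Its changes of 0.04, 0.70 and 0.34 (SE 0.41) at 2, 8 and 24 h did not pass (limma adjusted p = 0.999, 0.408 and 0.761). Across the 10 tests of the SB431542 course that could be made on the pair, limma called 0, and 0 had an unadjusted p under 0.05. The balance between both genes moved with SB431542 in M1 by −0.45, 0.70 and 0.49 on the log2 scale at 2, 8 and 24 h, with overlapping groups. An exact two-sided permutation test gave p = 0.4, 0.2 and 0.5, but 3 against 3 libraries cannot go below 0.1, so it could not have called a change of any size. The share of all MDA-MB-231 genes called was 0% at 2 h, where 1007 genes had an unadjusted limma p under 0.05, 0.242% at 8 h and 1.9% at 24 h.

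At the earliest time under the inhibitor, every M1 library was listed higher for the first gene than every library of the other lines. Such separation between lines was common among all genes, as the shares given below show. The difference from M2 was not tested, because the M2 libraries were all listed at 0. Most of these levels were low, and with the depth unknown such low levels cannot be ranked with any stated precision. NONHSAG026213.2 was lower in MDA-MB-231, with 0, 0 and 0.0754 TPM, than in M1, with 0.270, 0.572 and 1.26 TPM, a log2 difference of −1.11 (SE 0.27, limma adjusted p = 0.00107) that was lower in 3 of 3 libraries. It was −0.93 after median-of-ratios scaling (limma adjusted p = 0.0037), where the median of all genes was −0.09, against −0.33 as deposited. For this contrast 41.1% of genes were called in either direction, and in 36.7% every MDA-MB-231 library lay below every M1 library. NONHSAG026216.2 also lay lower in every MDA-MB-231 library, with 0.156, 0.043 and 0 TPM, than in M1, with 0.555, 0.335 and 0.371 TPM, but its difference of −0.70 (SE 0.38) did not pass (limma adjusted p = 0.137).

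In M2 both genes were listed at 0 in the 3 earliest SB431542 libraries, below every M1 library, which held of 24.4% of genes. At 24 h the M2 libraries of NONHSAG026216.2, with 0, 0.172 and 0 TPM, lay below those of M1, with 0.299, 0.208 and 0.489 TPM, as was seen for 59.1% of genes. Limma called 54.5% of genes in that contrast and neither member of the pair. The differences were −0.58 (SE 0.38, limma adjusted p = 0.191) for NONHSAG026216.2 and −0.36 (SE 0.31, adjusted p = 0.326) for NONHSAG026213.2, against a median of −0.78 over all genes. NONHSAG026216.2 did not differ past the threshold at 24 h between MDA-MB-231 and M1 (−0.21, limma adjusted p = 0.681, 46.5% of genes called) or between MDA-MB-231 and M2 (0.37, limma adjusted p = 0.512, 39.6% called). Nor did the 24 h SB431542 change of NONHSAG026216.2 differ between MDA-MB-231 and M1 past the threshold, by an interaction of 0.49 (SE 0.53, limma adjusted p = 0.728). Of the 6 differences between lines that could be tested on the pair, limma called 1, that of NONHSAG026213.2 between MDA-MB-231 and M1.

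The identifiers around the pair were then taken by their numbers, with earlier results of these data known. Of the 8 numbers between and next to the 2 genes, 4 were in the table: NONHSAG026210.2, NONHSAG026212.2, NONHSAG026218.2 and NONHSAG026219.2. Their limma tests against 0 h and against SB431542 were added after values had been seen, and these genes share libraries and scaling with the pair. Without libraries of the TGF-β arm, NONHSAG026212.2 would have failed the filter in every line. The same holds for NONHSAG026218.2 in M2 and MDA-MB-231 and for NONHSAG026219.2 in M1. Their p-values in those lines describe these libraries and are no independent support for a rise. NONHSAG026212.2, numbered just below NONHSAG026213.2, rose against 0 h in MDA-MB-231 and M2 and against SB431542 in M1 and MDA-MB-231, and NONHSAG026218.2, the next entry above NONHSAG026216.2, rose early in M1.

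NONHSAG026212.2 rose in MDA-MB-231 at all 3 times. It had 0.136, 0 and 0 TPM at 0 h, 1.12, 0.763 and 1.74 TPM at 2 h, 2.03, 1.73 and 0.886 TPM at 8 h, and 1.21, 1.51 and 1.64 TPM at 24 h. No later library overlapped the start, a separation that 4.28%, 4.72% and 3.95% of genes showed at 2, 8 and 24 h. The log2 changes were 1.62, 1.87 and 1.84 (SE 0.32, limma adjusted p = 0.0144, 0.00209 and 0.00108), where 0.58%, 1.27% and 5.58% of genes were called. Without TGF-β libraries it would have failed the filter there, so these p-values are a description. The 2 h call was lost without 2 h replicate 1 (limma adjusted p = 0.0521), 2 h replicate 3 (0.111) or 0 h replicate 2 (0.0802).

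In M2 NONHSAG026212.2 held 0.247, 0 and 0 TPM at 0 h, 0, 0.397 and 0.158 TPM at 2 h, 0.794, 1.18 and 0.683 TPM at 8 h, and 1.27, 0.724 and 1.53 TPM at 24 h. Its 2 h change of 0.22 (SE 0.25) did not pass (limma adjusted p = 0.802). It rose at 8 h by 1.26 (adjusted p = 0.00337) and at 24 h by 1.52 (adjusted p = 3.73e-05), with 0.702%, 4.86% and 49.3% of genes called at 2, 8 and 24 h. Only TGF-β libraries of 8 h and 24 h brought it past the filter in M2, so these p-values are a description. Its 8 h call was lost when the fit held the compared groups alone (limma adjusted p = 0.0833). In M1 its changes of 1.01, 0.73 and 0.98 (SE 0.37) did not pass as deposited (limma adjusted p = 0.25, 0.247 and 0.0754), and the 24 h change passed after median-of-ratios scaling (adjusted p = 0.0326).

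Against SB431542 at the same time, NONHSAG026212.2 was higher with TGF-β in M1 too. Because its TGF-β libraries brought it past the filter in each line, the p-values of this comparison are also a description. Its SB431542 libraries there held at most 0.0256 TPM at 2 h, 0 at 8 h and 0.0269 TPM at 24 h, below every TGF-β library, and the lowest TGF-β library held 0.336 TPM. It was higher by 1.83 at 2 h and 1.80 at 24 h (SE 0.37, limma adjusted p = 0.00932 and 0.00162), and no fold is given at 8 h. Of M1 genes, 1.35%, 8.3% and 14.6% were called in this comparison at 2, 8 and 24 h. In MDA-MB-231 it was higher by 1.38 at 2 h and 1.68 at 8 h (SE 0.32, limma adjusted p = 0.0357 and 0.00625), and its 24 h SB431542 libraries were listed at 0, where 1.14%, 0.936% and 4.39% of genes were called. Leaving out any 1 TGF-β library, or SB431542 replicate 2 or 3, ended that 2 h call (limma adjusted p up to 0.18), as did TGF-β replicate 1 or SB431542 replicate 1 or 2 for the 8 h call (up to 0.0641). With the compared groups alone neither passed (0.101 and 0.0711). In M2 all its SB431542 libraries were listed at 0, below every TGF-β library at 8 h and 24 h.

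NONHSAG026218.2 in M1 had the early maximum of NONHSAG026216.2. It held 1.13, 0.700 and 0.268 TPM at 0 h, 6.97, 6.72 and 13.7 TPM at 2 h, 3.03, 4.66 and 4.80 TPM at 8 h, and 2.16, 2.28 and 1.33 TPM at 24 h. Replicate 3 of the 2 h group was the highest library of that group for both identifiers, at 13.7 TPM here and 21.8 TPM for NONHSAG026216.2. It rose by 3.00 at 2 h and 2.00 at 8 h (SE 0.38, limma adjusted p = 0.000158 and 0.00131), times at which 0.842% and 9.1% of M1 genes were called. The 24 h change of 1.06 did not pass as deposited (limma adjusted p = 0.058, with 16.6% of genes called) and passed after median-of-ratios scaling (1.36, adjusted p = 0.0176). It also passed without 24 h replicate 3 (adjusted p = 0.0418) or 0 h replicate 1 (0.0390). Over SB431542 it was higher in M1 by 3.67, 2.37 and 1.55 at 2, 8 and 24 h (limma adjusted p = 2.88e-06, 0.000171 and 0.00654), the last of which was lost without SB431542 24 h replicate 3 (adjusted p = 0.0557).

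In M2 NONHSAG026218.2 was listed at 0 in all 3 libraries of 0 h and held 1.28, 2.54 and 0.702 TPM at 8 h and 0.305, 0.171 and 0.692 TPM at 24 h. Over SB431542 in M2 it was higher by 1.78 at 8 h (limma adjusted p = 0.000966), and its difference of 0.54 at 24 h did not pass (adjusted p = 0.392), with 4.14%, 6.92% and 10.7% of genes called at 2, 8 and 24 h. In MDA-MB-231 its changes of 0.73, 0.62 and 0.36 (SE 0.34) did not pass (limma adjusted p = 0.406, 0.405 and 0.574). NONHSAG026218.2 was listed at 0 in all SB431542 libraries of 2 h and 8 h there, below every TGF-β library. The lowest of those TGF-β libraries held only 0.0499 TPM at 2 h and 0.0661 TPM at 8 h, too low to rank with stated precision. Such separation was seen in 3.94% and 5.79% of genes. At 24 h NONHSAG026218.2 differed by 0.23 (limma adjusted p = 0.70).

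NONHSAG026219.2 in M1 was listed at 0 in all 3 libraries of 0 h and held 0.728, 0.416 and 1.69 TPM at 2 h, 0, 0.323 and 0.478 TPM at 8 h, and 0.955, 0.294 and 1.22 TPM at 24 h. A single SB431542 library of 2 h held 0.924 TPM, so the arms overlapped at 2 h, and the difference of 0.93 did not pass (limma adjusted p = 0.37), nor did that of 0.25 at 8 h (0.795). At 24 h it was higher with TGF-β by 1.28 (limma adjusted p = 0.0341), a call lost without TGF-β replicate 1 or 3 or SB431542 replicate 1 or 2 (adjusted p up to 0.119) or with no filter (0.0624). Because its TGF-β libraries brought it past the filter in M1, that p-value is a description. It was filtered out in M2 and MDA-MB-231. NONHSAG026210.2 was an abundant gene, at 155 ± 25.2 TPM at 24 h against 236 ± 16.5 TPM at 0 h in M1 (SD, n = 3). It fell in M1 at 24 h by 0.61 on the log2 scale (limma adjusted p = 0.000387), but not after median-of-ratios scaling (−0.22, adjusted p = 0.42). In M2 NONHSAG026210.2 fell at 24 h to 101 ± 6.35 TPM, against 344 ± 58.3 TPM at 0 h (log2 change −1.75, limma adjusted p = 6.57e-09). After that scaling the change was −0.64 (adjusted p = 0.00168). With SB431542 it also fell in M2, from 416 TPM to 282 TPM at 24 h (−0.55, limma adjusted p = 0.0101). That change was 0.37 and did not pass after the scaling (adjusted p = 0.0837). In MDA-MB-231 its 24 h change of −0.40 with TGF-β did not pass (limma adjusted p = 0.0816). Against SB431542 it was lower in M1, with log2 differences of −0.43 at 8 h and −0.59 at 24 h, and in M2, with −1.48 at 24 h (limma adjusted p = 0.014, 0.000659 and 3.6e-07). The M1 call at 24 h was lost after median-of-ratios scaling (−0.30, adjusted p = 0.253) and that at 8 h without TGF-β replicate 1 or 2 or SB431542 replicate 2 (adjusted p up to 0.0756).

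**Figure D4:**
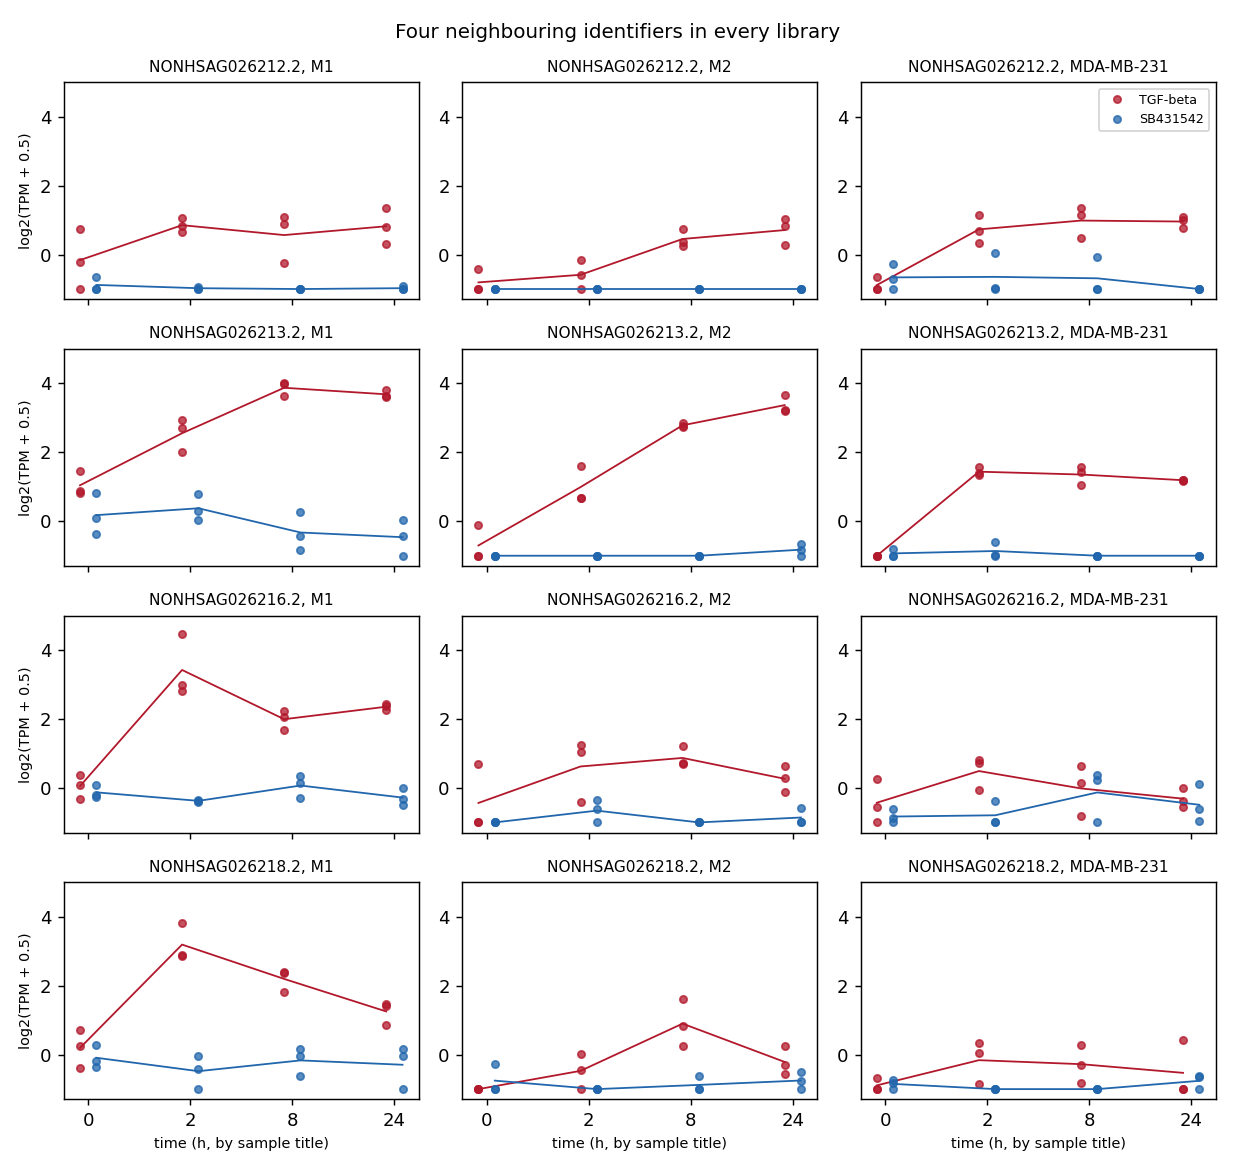
log2(TPM + 0.5) (vertical axis) of 4 identifiers in number order, 1 per row of panels, in every library of each line against time in hours (not to scale), TGF-β in red and SB431542 in blue; lines join means of 3 libraries. In MDA-MB-231 NONHSAG026212.2 and NONHSAG026213.2 leave the SB431542 libraries at 2 h and stay apart, while in M1 NONHSAG026216.2 and NONHSAG026218.2 share a maximum at 2 h.

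Profiles were also ranked for likeness over the whole table, as a description. Each gene's mean in the 24 groups was centred on its own average, and the root mean square (RMS) difference between profiles was taken for 23568 genes. The nearest of all genes to NONHSAG026216.2 was NONHSAG026218.2, with an RMS difference of 0.37 on the log2 scale, against a median of 1.09 over all genes. It was also nearest with a pseudocount of 1 or after median-of-ratios scaling, and 2nd by Pearson correlation. NONHSAG026213.2 was the 4346th nearest to NONHSAG026216.2, or the 60th by Pearson correlation of the profiles, a measure that ignores the size of the response.

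Seen from NONHSAG026213.2, NONHSAG026216.2 was 16th (RMS 0.99), NONHSAG026218.2 was 26th and NONHSAG026212.2 was 30th, against a smallest RMS of 0.83 and a median of 1.67. All 24 points share the libraries and scaling, and the ranking uses the TGF-β groups by which the pair was chosen. The strand setting of the counting is not given in the sources used here, so reads of overlapping entries cannot be told apart, and whether any of these identifiers share reads was not tested.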

How the data were processed

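Total RNA of 72 libraries was sequenced, and the deposited table holds TPM, as scaled by the authors, of 96411 lncRNA genes. GRCh38 is the build in the submitters' processing notes, which list StringTie 1.3.6, HISAT2 2.2.0, cutadapt 2.10 and FastQC as tools. For the annotation release, the strand setting and all parameters: not given in the sources used here. Depth is unknown, so no counting interval is given. Columns were matched to samples by their labels, and 0 columns were left over. The series' description counts 36 samples where 72 were labelled, and names the triplicates biological. Should some stem from 1 culture, the p-values hold for the spread of these samples alone.

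The pair, its neighbouring identifiers and the tests were chosen with earlier results of these data known. Genes that reached 0.5 TPM in 3 or more libraries of a fit were analysed as log2(TPM + 0.5) with limma 3.58.1 (trend) in R 4.3.3, over 24 libraries of a line or 48 of a pair of lines. Tests were two-sided, Benjamini-Hochberg adjusted over all genes of the fit, and called at an adjusted p under 0.05. A pseudocount understates the change of low genes. No fold was given where a whole group was listed at 0. Named genes were the pair and the identifiers numbered between them or within 3 of them. The fit was tested on simulated data, with changes added at 24 h of SB431542 to genes averaging 1 TPM or more. Recovery of changes at lower levels was not checked. Other settings were pseudocounts of 1 and 0.1, median-of-ratios scaling, scaling without the 10 most abundant genes, no filter, a filter on a mean of 1 TPM, the compared groups alone, a replicate block and each library left out.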

Additional observations from a re-analysis of the deposited data

How the results depend on the processing

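Of 367 recomputed TGF-β estimates of the pair, 326 moved by less than 1 SD and 41 by more, and 5 changed sign, all of them of NONHSAG026216.2 in MDA-MB-231 with 1 library left out (from −0.32 to −0.03). With a pseudocount of 1, the 24 h change in M1 was 1.87 for NONHSAG026216.2, and the 24 h difference from SB431542 was 3.43 for NONHSAG026213.2 and 2.08 for NONHSAG026216.2. In M2 both values of NONHSAG026213.2 were 3.27 (from 0 h) and 3.35 (from SB431542). With a pseudocount of 0.1, the same 3 values in M1 were 2.92, 5.49 and 3.50. In M2 they were 5.83 and 5.98 for NONHSAG026213.2, and 1.78 and 2.50 for NONHSAG026216.2. For NONHSAG026213.2 in M2, median-of-ratios scaling gave 4.87 and 4.88, and scaling without the 10 most abundant genes gave 4.49 and 4.60. Of 221 recomputed SB431542 tests, 1 crossed the threshold: NONHSAG026216.2 at 24 h between M2 and M1, −1.58 with a pseudocount of 0.1 (limma adjusted p = 0.0378). These pseudocount shifts arise from low values; the causes of the others were not tested. The call of NONHSAG026213.2 between MDA-MB-231 and M1 held in every setting run, from −2.53 to −0.69, and from −1.39 to −0.79 with 1 library left out. Same-numbered libraries did not deviate together (r from −0.14 to 0.14, all 3 over 0.1 in 1 of 27 contrasts), so the replicate block is an alternative only: with it that difference was −1.11 (limma adjusted p = 0.00147), and no call of the pair changed. Without 0 h replicate 1 in M2, NONHSAG026213.2 has no fold, as the other 2 libraries are listed at 0; the same holds for NONHSAG026216.2 and replicate 2. A mean of at least 1 TPM removed NONHSAG026216.2 in M2 and both genes in MDA-MB-231. With the depth unknown, levels under about 0.5 TPM cannot be ranked with any stated precision. Counts of all genes called by limma moved by over 1.5 times in 103 of 396 recomputations. With the compared groups alone, calls against 0 h at 2 h of TGF-β numbered 43 rather than 176 in M1, 41 rather than 119 in M2 and 48 rather than 96 in MDA-MB-231. Calls at 8 h numbered 411 rather than 824 in M2 and 83 rather than 211 in MDA-MB-231, and at 24 h 2254 rather than 3461 in M1 and 358 rather than 924 in MDA-MB-231. After median-of-ratios scaling, calls in MDA-MB-231 numbered 326 at 2 h and 556 at 8 h of TGF-β and 718 rather than 314 at 24 h of SB431542, and in M2 229 at 2 h and 1491 at 8 h. Scaling without the 10 most abundant genes left 4744 rather than 8365 at 24 h in M2. With the compared groups alone, SB431542 calls numbered 1 rather than 17 at 2 h in M1 and 2 rather than 40 at 8 h in MDA-MB-231, while no filter gave 7 rather than 0 at 2 h there. With 1 library left out, SB431542 calls in M1 ranged from 5 to 17 at 2 h, from 439 to 522 at 8 h (770 with all) and from 700 to 761 at 24 h (1097 with all), and in MDA-MB-231 from 0 to 1, from 3 to 150 and from 106 to 351. TGF-β calls against 0 h then ranged in M1 from 85 to 120 at 2 h, from 1270 to 1425 at 8 h and from 2403 to 3886 at 24 h, in M2 from 53 to 113, from 498 to 703 and from 6680 to 8574, and in MDA-MB-231 from 54 to 153, from 113 to 305 and from 422 to 1351.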
